A study of Mus musculus with 12 samples.

Results

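A set of 9 genes that move bicarbonate, protons, carbon dioxide and water across the corneal endothelium was followed in 12 RNA-seq libraries of mouse corneal endothelium. They were chosen by name, as Slc4a11, Slc4a4, Slc4a2, Slc4a3, Car2, Car3, Car12, Car14 and Aqp1, and all 9 were found among the 32761 genes of the count table and passed the filter on low counts with 17965 genes in all. The mutant mice were homozygous for the Q455K change in Col8a2, a collagen chain of Descemet membrane on which this cell layer sits, and the controls were wild-type mice. The mutation models Fuchs endothelial corneal dystrophy, in which the layer fails and the cornea swells. Both genotypes were sampled early (no older than 2 months) and late (8 months or older), with 3 biological replicates in each of the 4 groups. The strain, the sex and the number of animals behind a library were not given in the sources used here. All early libraries were batch 1 and all late libraries batch 2.

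The corneal endothelium is a single sheet of cells on the inner face of the cornea that keeps it clear by moving ions, and water after them, into the aqueous humour. Bicarbonate enters these cells with sodium through the Slc4a4 cotransporter, carbonic anhydrases speed the exchange between bicarbonate and carbon dioxide inside and outside the cell, and protons and lactate leave by partner transporters. Slc4a11 is a proton or hydroxide transporter of the same family that does not carry bicarbonate, and its loss causes congenital endothelial dystrophy. Aqp1 is the water channel of the layer.

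A library held between 19722598 and 39431676 counts, so that 3 counts corresponded to 0.0773 to 0.132 CPM (counts relative to the library size, scaled by the TMM method of edgeR). Late wild-type replicate 1 stood apart from its group: its counts differed from those of late wild-type replicates 2 and 3 by a chi-square per gene of 235 and 237, against 59.1 between those libraries. Col8a2 itself did not pass the threshold in either genotype comparison (edgeR adjusted p = 0.714 early and 0.896 late), and the level of its transcript cannot check a change of 1 amino acid. Results that rest on the library that stood apart are given with and without it. The summed level of 16 corneal endothelial markers other than Slc4a11, led by Col8a1, was 4049 to 6166 CPM in every library, none of them was at 0 across a group, and the markers of other tissues are given beside the members they touch. Tests are edgeR's quasi-likelihood F test in 1 fit of the 12 libraries, with Benjamini-Hochberg adjustment over all genes tested and a threshold of 0.05, and each ± after a log2 fold change is its standard error.

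Levels between genes were compared as FPKM, fragments per length of transcript and depth of library, the authors' own values, which allow for gene length. Car3, a cytosolic carbonic anhydrase of low activity that is abundant in muscle and fat, had a median of 36914 FPKM over the 12 libraries (range 24406 to 55025). It ranked first of all genes by FPKM in 10 libraries, ranked second in early mutant replicate 1 and late mutant replicate 2, and took 3.75% to 8.46% of all counts of a library. Slc4a11 followed at 1384 FPKM (484 to 1764) and Aqp1 at 1027 (413 to 1527). Slc4a11 was above Aqp1 in 12 of 12 libraries, by a ratio of 1.004 to 1.59, although their ranges overlapped. Next came Car14, a membrane carbonic anhydrase whose active site faces outward, at 57.4 FPKM (46.1 to 119), and Slc4a4 at 25.6 (14.6 to 41.7). Slc4a4 thus stood at 0.0103 to 0.0466 of the Slc4a11 level within a library.

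The remaining 4 members were expressed at a low level. Car2, the fast cytosolic carbonic anhydrase, had a median of 2.19 FPKM (1.43 to 4.75), and Slc4a2, a chloride-bicarbonate exchanger found in most tissues, also had 2.19 (1.21 to 4.32). Car2 was above Slc4a2 in 7 of 12 libraries, so these neighbours had no fixed order. Slc4a3, the exchanger best known from heart and brain, had 1.13 FPKM (0.415 to 1.48) and was below Slc4a2 in every library, with overlapping ranges. Car12, the other membrane carbonic anhydrase of the set, had 0.745 FPKM (0.337 to 2.04) and was below Slc4a3 in 7 of 12 libraries. The other neighbours in this order, Car3 over Slc4a11, Aqp1 over Car14, Car14 over Slc4a4 and Slc4a4 over Car2, did not overlap.

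Markers of tissues in which Car3 is known to be abundant were low beside it. The summed level of 15 skeletal muscle markers was 5.18 to 127 CPM and that of 9 adipocyte markers 2.64 to 9.19 CPM, against 31023 to 100990 CPM for Car3. The muscle gene Ckm lay at 0.0309 to 1.26 CPM and the muscle gene Acta1 at 0.393 to 20 CPM. The fat droplet gene Plin1 lay at 0 to 0.557 CPM and the fat marker Fabp4 at 0.155 to 1.39 CPM, and Lipe made up 71.2% of the adipocyte sum. The part of muscle and fat in the level of Car3 was not tested. For red blood cells, known for carbonic anhydrase and for the exchanger Slc4a1, the summed level of 13 markers was 14.4 to 43.2 CPM and Slc4a1 lay at 0 to 0.682 CPM.

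**Figure D1:**
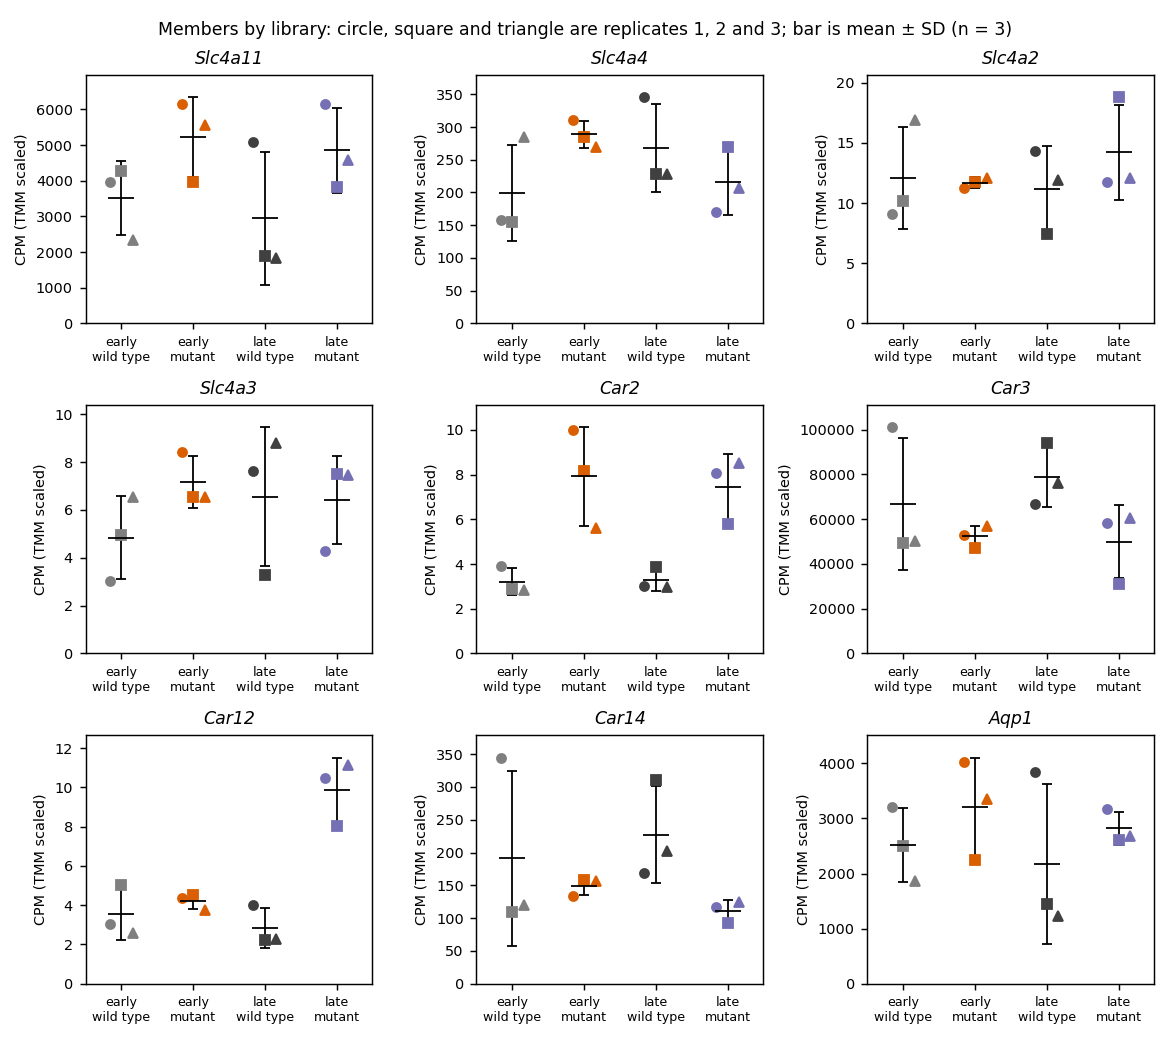
Level of each of the 9 genes in TMM-scaled CPM on linear axes from 0, by group, with circles, squares and triangles for replicates 1, 2 and 3 and a bar for the mean ± SD (n = 3). Car2 in both stages and Car12 in the late stage lie higher in all mutant libraries, and late wild-type replicate 1 lies far above replicates 2 and 3 for Slc4a11 (5101 CPM against 1895 and 1827) and Aqp1.

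The first comparison asked which of these genes differ between genotypes at each stage. The carbonic anhydrases Car12 and Car2 were the members called higher in mutants, and no member was called lower in this fit. Car14 and Car3 were lower in all late mutant libraries without passing the threshold. Car12 rose 3.48-fold at the late stage, and Car2, averaged over both stages, rose 2.36-fold. None of the other 7 members passed the threshold in any comparison. At the early stage 0 of the 9 members passed, against 0.590% of all genes tested, with 1 member at an unadjusted p under 0.05 (Car2). DESeq2's Wald test called 1 member early (Car2, adjusted p = 0.0293), against 1.32% of all genes, and limma-voom called 0, against 0.824%. At the late stage 1 of 9 passed (Car12), against 5.47% of all genes, and in the average of both genotype effects 2 of 9 passed (Car2 and Car12), against 6.85%. The members' median log2 fold change was 0.35 early, 0.34 late and 0.27 on average, against -0.11, 0.00101 and -0.08 over all genes tested. Of the 9 members 6, 5 and 7 lay above 0, against 43.1%, 50.1% and 45.0% of all genes tested.

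**Figure D2:**
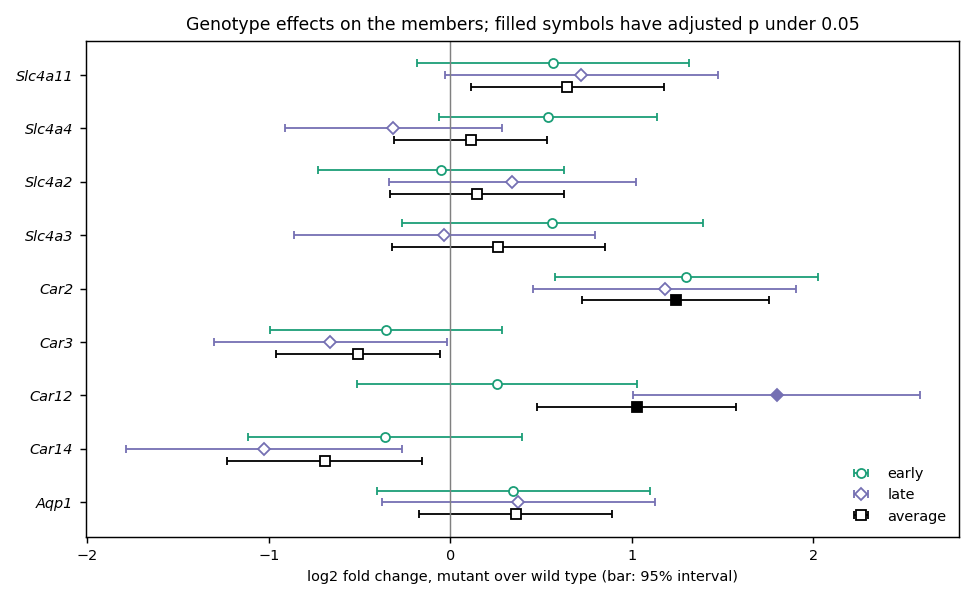
Log2 fold change of mutant over wild type for each gene, early (circles), late (diamonds) and averaged over the stages (squares), with 95% intervals and filled symbols at an adjusted p under 0.05. The filled symbols are Car12 late (1.80) and Car12 and Car2 in the average (1.03 and 1.24), and the intervals of Slc4a4, Slc4a2, Slc4a3 and Aqp1 include 0 throughout.

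Car12 is anchored in the membrane with its catalytic domain outside the cell. In late mutants it lay at 10.5, 8.03 and 11.1 CPM in replicates 1 to 3, against 4, 2.21 and 2.29 CPM in late wild type. All 3 late mutant libraries were higher than all late wild-type libraries, as was the case for 14.9% of tested genes. The means were 9.89 ± 1.64 CPM (SD, n = 3) and 2.83 ± 1.01 CPM, a log2 fold change of 1.80 ± 0.38 (edgeR adjusted p = 0.0117). The early libraries overlapped, with 4.37, 4.54 and 3.74 CPM in mutants and 3.03, 5.01 and 2.58 CPM in wild type, and the log2 fold change was 0.26 ± 0.37 (adjusted p = 0.798). That early value was 0.0846 without early wild-type replicate 3 and 0.61 without early wild-type replicate 2. The late effect exceeded the early one by 1.54 ± 0.52 on the log2 scale, a difference that did not pass (adjusted p = 0.253), so the stages were not shown to differ. The genotype effect averaged over stages was 2.04-fold (edgeR adjusted p = 0.0237). The authors' deposited table gives a late log2 fold change of 1.74 for Car12 with a q of 0.00409.

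The late call of Car12 was lost when late mutant replicate 3 (adjusted p = 0.0514), late wild-type replicate 2 (0.0553) or late wild-type replicate 3 (0.0501) was left out, and its log2 fold change lay between 1.65 and 2.26 over 21 alternatives. The average call was lost without early mutant replicate 1 (adjusted p = 0.064), early wild-type replicate 3 (0.0615), late mutant replicate 1 (0.0523), late mutant replicate 3 (0.0575) or late wild-type replicate 2 (0.0518).

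The sequence before the start of Car12 is shown because Car12 was the member called within a single stage, with that of Car14 beside it because Car14 lay on the other side of 0 late. Each run is the 250 bases before the start from RefSeq on GRCm38.p6, Car12 at chr9:66713436-66713685 on the plus strand and Car14 at chr3:95904686-95904935 on the minus strand, and both are upstream of the first exon. Capitals mark matches to the motifs searched.
Car12: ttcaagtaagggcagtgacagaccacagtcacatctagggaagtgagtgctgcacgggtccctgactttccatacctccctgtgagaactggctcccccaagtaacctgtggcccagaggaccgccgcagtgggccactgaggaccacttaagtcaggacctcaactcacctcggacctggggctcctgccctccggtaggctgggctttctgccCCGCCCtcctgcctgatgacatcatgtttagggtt
Car14: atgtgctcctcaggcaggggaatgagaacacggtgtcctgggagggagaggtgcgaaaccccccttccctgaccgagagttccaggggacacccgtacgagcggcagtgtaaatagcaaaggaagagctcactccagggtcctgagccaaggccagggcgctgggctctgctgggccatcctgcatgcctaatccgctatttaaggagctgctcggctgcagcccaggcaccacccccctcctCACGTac
The motifs searched on both strands were the TATA box TATAAA, the CCAAT box, the GC box core GGGCGG, the ACGTG core of hypoxia and E-box elements, the antioxidant element core TGACNNNGC and the AP-1 site TGANTCA, of which those for TGACNNNGC and TGANTCA can overlap. Car12 held 1 match to GGGCGG on the minus strand 35 to 30 bases before the start, a motif that 32.7% of 32851 RefSeq windows of this length hold. Car14 held 1 match to ACGTG on the minus strand 7 to 3 bases before the start, a motif that 16.6% of windows hold. Of the 9 members 6 had a window in the RefSeq table, and their other matches were to GGGCGG in Slc4a3, Aqp1 and 1 of the windows of Slc4a4, and to CCAAT in the other window of Slc4a4.

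Car2 is the fast cytosolic enzyme that supplies bicarbonate within the cell and is the best known target of carbonic anhydrase inhibitors. In early mutants it lay at 9.97, 8.17 and 5.60 CPM against 3.89, 2.90 and 2.83 CPM in wild type. In late mutants it lay at 8.08, 5.77 and 8.52 CPM against 3.02, 3.85 and 2.99 CPM. Every mutant library was above every wild-type library of its stage, as was the case for 10.1% of tested genes early and 14.9% late. The log2 fold change was 1.30 ± 0.35 early (edgeR adjusted p = 0.137) and 1.18 ± 0.35 late (adjusted p = 0.0514), neither of which passed. Averaged over stages it was 1.24 ± 0.25 (edgeR adjusted p = 0.00452), and this call held in 20 of 20 alternatives, with log2 fold changes from 1.15 to 1.38. The effect differed between stages by -0.12 ± 0.48 (95% interval -1.13 to 0.89). The late value passed in 5 of 21 alternatives, among them leaving out early wild-type replicate 1 (adjusted p = 0.04997), late mutant replicate 2 (0.0474) or late wild-type replicate 1 (0.03). The authors' deposited table gives q values of 0.0385 early and 0.103 late for Car2.

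Other cell types moved with genotype in the libraries in which Car2 and Car12 were higher. The summed level of 17 macrophage markers was 305 to 677 CPM in early mutants against 43.9 to 74.1 CPM in wild type, and 485 to 594 against 49.8 to 79.9 CPM late, with 9 and 14 of 17 genes called higher. The summed level of 9 trabecular meshwork markers was 1077 to 1670 CPM in early mutants against 407 to 780.4 CPM, and 1259 to 1663 against 440 to 637 CPM late. Photoreceptor markers, 18 in all, were higher in all early mutants, at 222 to 441 against 64.3 to 97.7 CPM, and overlapped late. The same held for 11 melanocyte markers, at 98.6 to 239 against 40.5 to 54.6 CPM early. It also held for the sum of 12 vascular endothelial markers, at 91.4 to 106 against 57 to 90.1 CPM early. Egfl7 made up 72% of that sum, and 5 of the 12 genes lay above 0 early and 11 late, with 0 called. Of 13 keratocyte markers 3 were called higher early, and 4 higher and 1 lower late, while their sum, led by Dcn, overlapped at both stages. Late mutants were also higher throughout for 17 lens markers, at 257 to 408 against 104 to 185 CPM, and for 14 corneal epithelial markers, of whose sum Aldh3a1 made up 95.3%. Red blood cell markers overlapped at both stages. They lay at 25.7 to 43.2 CPM in mutants against 14.6 to 26.3 CPM in wild type early. Late, they lay at 16.8 to 35.9 CPM in mutants against 14.4 to 23.2 CPM in wild type. The part of these cell types in the levels of Car2 and Car12 was not tested, and in bulk tissue the number of cells of a type (fewer or more) and the RNA per cell cannot be told apart.

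Car14 and Car3 lay in the other direction at the late stage without passing the threshold. Car14 was at 117, 92.6 and 125 CPM in late mutants and at 169, 311 and 202 CPM in late wild type, a log2 fold change of -1.03 ± 0.36 (edgeR adjusted p = 0.089). Car3 was at 58257, 31023 and 60672 CPM in late mutants and at 66979, 93998 and 76012 CPM in late wild type, a log2 fold change of -0.66 ± 0.31 (adjusted p = 0.168) that was -0.32 without late mutant replicate 2. For both genes all late mutant libraries were below all late wild-type libraries, as for 10.9% of tested genes. Car14 overlaps Aph1a on the opposite strand in the GENCODE annotation and how the counting used strand is not stated, so its reads may include those of Aph1a. The late change of Car14 passed in 4 of 21 alternatives, and the authors' deposited table gives it a log2 fold change of -1.11 with a q of 0.0211.

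At the early stage a single library set the sign for both genes. Car14 was at 133, 158 and 156 CPM in early mutants and at 345, 109 and 119.6 CPM in wild type. Car3 was at 52702, 47294 and 56849 CPM in mutants and at 100990, 49365 and 50393 CPM in wild type. Early wild-type replicate 1 was high for both, at 3.01-fold the mean of the other wild-type libraries for Car14, which 0.468% of tested genes reached, and at 2.02-fold for Car3. The early log2 fold changes of -0.36 ± 0.36 for Car14 (edgeR adjusted p = 0.721) and -0.36 ± 0.31 for Car3 (adjusted p = 0.687) became 0.40 and 0.09 without it.

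The markers around Car14 differed in how they moved. Car14 is also known from Mueller glia and retinal pigment epithelium, whose 14 other markers overlapped between genotypes late, at 36261 to 38700 CPM in mutants against 33222 to 53538 CPM, of which Apoe made up 97.1%. The summed level of 15 ciliary body and iris epithelium markers was lower in all late mutant libraries, at 80.4 to 105 CPM against 121 to 128 CPM, and higher in all early ones, at 121 to 155 against 81.5 to 96.9 CPM. Slc1a3 made up 53.7% of this sum. Of the 11 markers tested, 7 lay above 0 early and 5 late, and 0 were called at either stage. Opn5 and Zic2, also of the 15, were at 0 in all late wild-type libraries. The sum of the 16 corneal endothelial markers was lower in all late mutant libraries as well, at 4150 to 4514 CPM against 5017 to 5893 CPM, with 2 of 16 called lower. For 10 Schwann cell and nerve markers the sum was also lower in all late mutant libraries, at 208 to 311 CPM against 347 to 384 CPM. Pmp22 made up 61.9% of that sum, and 0 of the 8 markers tested were called late. The part of these cell types in the late levels of Car3 and Car14 was not tested.

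Slc4a11 and Aqp1 were higher on average in mutants at both stages without passing the threshold. Slc4a11 was at 6144, 3968 and 5551 CPM in early mutants against 3954, 4277 and 2344 CPM in wild type, and at 6153, 3819 and 4576 CPM in late mutants against 5101, 1895 and 1827 CPM. The groups overlapped at both stages, and late wild-type replicate 1 lay within the late mutant range. The log2 fold change was 0.57 ± 0.36 early (edgeR adjusted p = 0.622), 0.72 ± 0.36 late (adjusted p = 0.196) and 0.64 ± 0.25 on average (adjusted p = 0.129). Aqp1 was at 4025, 2249 and 3353 CPM in early mutants against 3210.4, 2497 and 1862 CPM, and at 3163, 2613 and 2687 CPM in late mutants against 3849, 1447 and 1228 CPM. Late wild-type replicate 1 was above every late mutant library for Aqp1. Its log2 fold change was 0.35 ± 0.36 early (edgeR adjusted p = 0.726) and 0.38 ± 0.36 late (adjusted p = 0.515).

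The late values of both genes depended on that library. Late wild-type replicate 1 was at 2.74-fold the mean of the other late wild-type libraries for Slc4a11 and at 2.88-fold for Aqp1. In the same direction, 2.41% and 1.90% of tested genes lay as far. Without it the late log2 fold change of Slc4a11 was 1.51 (edgeR adjusted p = 0.00605) and its average 1.07 (adjusted p = 0.00222). That of Aqp1 was then 1.21 late (edgeR adjusted p = 0.0128) and 0.80 on average (adjusted p = 0.00947). The lowest values came without late wild-type replicate 3, at 0.48 late and 0.53 on average for Slc4a11 and at 0.0948 late and 0.23 on average for Aqp1. Weighting the libraries with limma-voom gave 1.11 for late Slc4a11 (adjusted p = 0.0339) and 0.87 on average (adjusted p = 0.00823), and 0.64 on average for Aqp1 (adjusted p = 0.0369). Without late wild-type replicate 1 the fit called 3909 of the genes tested late, against 983 with it, so the background rose with it to 20.3%.

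**Figure D3:**
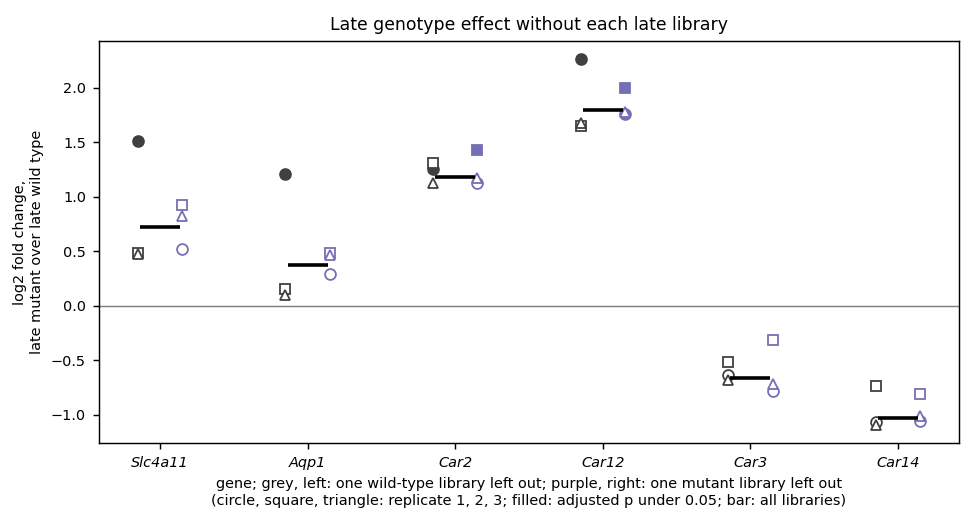
Late log2 fold change of 6 genes after leaving out each late wild-type library (grey, left) or late mutant library (purple, right), with the value from all libraries as a bar and filled symbols at an adjusted p under 0.05. Without wild-type replicate 1 (grey circle) Slc4a11 moves from 0.72 to 1.51 and Aqp1 from 0.38 to 1.21, while Car3 and Car14 stay below 0 in every case shown.

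The bicarbonate carriers proper showed no genotype effect past the threshold. Slc4a4, which brings sodium and bicarbonate into the cell, was at 312, 285 and 270.2 CPM in early mutants against 158, 155 and 285 CPM in wild type. The groups overlapped through early wild-type replicate 3 alone, and the log2 fold change was 0.54 ± 0.29 (edgeR adjusted p = 0.589, 95% interval -0.06 to 1.14). It was 0.90 without that library and 0.40 without early wild-type replicate 2. In late mutants it was at 170.1, 269.6 and 206 CPM against 346, 229 and 228 CPM, a log2 fold change of -0.31 ± 0.29 (edgeR adjusted p = 0.492). The late value lay at 0.04 without late wild-type replicate 1. The late effect minus the early one was -0.85 ± 0.41, which did not pass (adjusted p = 0.445).

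The exchangers Slc4a2 and Slc4a3 trade chloride for bicarbonate. Slc4a2 was at 7.38 to 18.8 CPM over the 12 libraries, with log2 fold changes of -0.05 ± 0.32 early (edgeR adjusted p = 0.963) and 0.34 ± 0.32 late (adjusted p = 0.508). Leaving out late wild-type replicate 1 gave 0.68 late, and leaving out replicate 2 gave 0.12. The 95% intervals ran from -0.73 to 0.63 early and from -0.34 to 1.02 late, so that a 2-fold rise was outside the early interval but not the late one. Slc4a2 overlaps Fastk and Gm22333 on the opposite strand, which leaves its reads uncertain in the same way as those of Car14. Slc4a3 was at 8.41, 6.53 and 6.56 CPM in early mutants against 3.03, 4.97 and 6.52 CPM in wild type. All early mutants were higher by a narrow margin, as for 10.1% of tested genes (log2 fold change 0.56 ± 0.40, edgeR adjusted p = 0.648). Late, the libraries overlapped for Slc4a3 and the log2 fold change was -0.03 ± 0.40 (adjusted p = 0.969).

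The genotype effect did not differ between the stages past the threshold for any member, against 0.00557% of all genes, with Car12 and Slc4a4 at an unadjusted p under 0.05. Both DESeq2 and limma-voom called 0 members for this difference. Between late and early libraries of the same genotype 0 of 9 members passed in wild type and 0 in mutants, with 0% of all genes called in either. In wild type 0 members and in mutants 1 member, Car12, had an unadjusted p under 0.05. Late mutants held 2.34-fold more Car12 than early mutants, with all libraries higher (edgeR adjusted p = 0.715, limma-voom adjusted p = 0.0212), and 10.6% of tested genes were higher in all late mutants. Slc4a4 and Car14 were lower in all late mutant than all early mutant libraries (adjusted p = 0.818 and 0.866), as were 8.67% of tested genes. DESeq2 called 0 members in either genotype and limma-voom 0 in wild type. Stage and batch cannot be told apart here.

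Some members followed each other across the 12 libraries. Likeness was measured as the root mean square difference between log2 CPM values centred on each gene's mean, over 12 libraries that share their depth and composition between genes. Slc4a11 and Aqp1 lay 0.204 apart on this log2 scale. Of 9457 other genes of at least 5 CPM, 38 were nearer to Slc4a11 than Aqp1 was, and the median gene was 0.695 away. Car3 and Car14 lay 0.254 apart, with 68 genes nearer to Car3 and a median of 0.587. Car2 and Car12, the members called higher, lay 0.600 apart, with 2132 genes (22.5%) nearer to Car2 and a median of 0.752. The genes nearest to Slc4a11 were Akt1s1 (0.106), Fndc4 (0.107) and Pex14 (0.115). Those nearest to Car2 were Bace2 (0.172), Srxn1 (0.217) and Hspa5 (0.230), and those nearest to Car12 were Fzd1 (0.332), Cln8 (0.336) and Zfp563 (0.344).

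**Figure D4:**
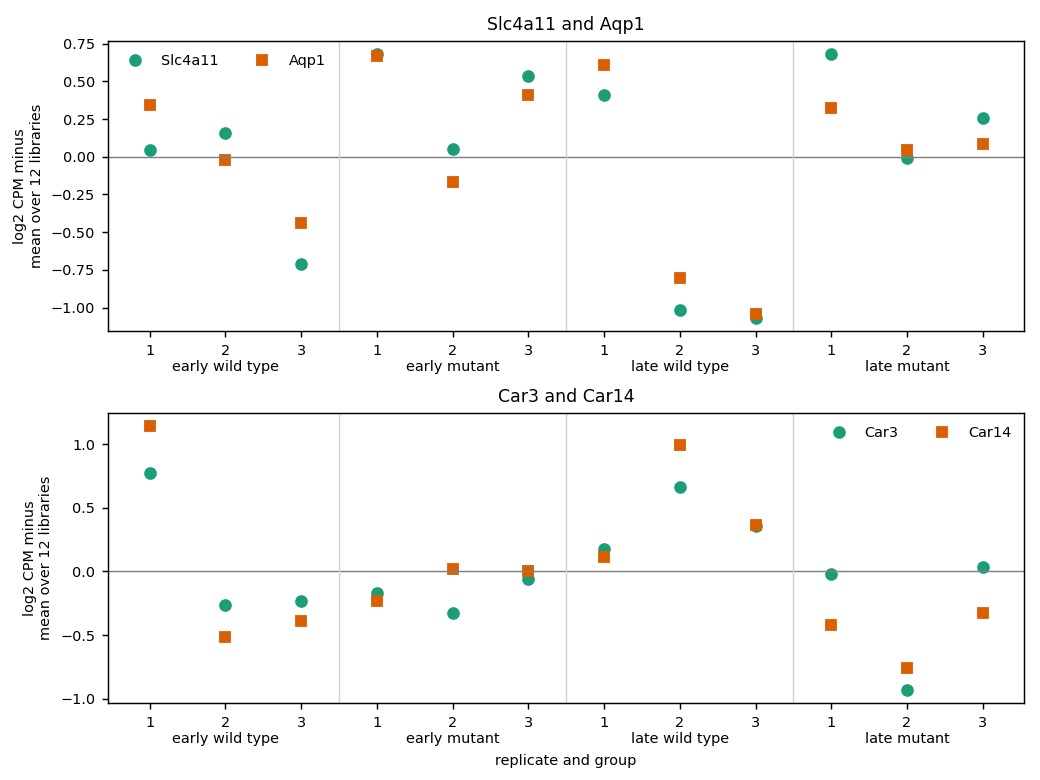
Log2 CPM minus the mean over the 12 libraries for Slc4a11 and Aqp1 (top) and for Car3 and Car14 (bottom), with libraries ordered by group and replicate. The genes of a pair lie close in most libraries, and late wild-type replicates 2 and 3 are low for Slc4a11 and Aqp1 and high for Car3 and Car14.

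The relatives of the members were mostly low or did not pass. Of the other Slc4 family genes 5 of 6 were tested and 0 passed early, late or on average. The most abundant, the sodium-driven exchanger Slc4a8, was at 22.8 ± 1.07 CPM in late mutants against 41.2 ± 4.5 CPM (edgeR adjusted p = 0.0545), and Slc4a7, a sodium-bicarbonate cotransporter, had a mean of 2.43 CPM. Of 12 other carbonic anhydrases 8 were tested, and 1, Car9, passed late (5.47% of all genes) and on average (6.85%). Car11, which lacks enzyme activity, had a mean of 19.4 CPM and did not pass (adjusted p = 0.998 late). Of 11 other aquaporins 6 were tested and 0 passed. Aqp5, the water channel of corneal epithelium and glands, had a mean of 18 CPM with a wide spread (29 ± 30.3 CPM in early mutants), and Aqp11 had 2.13 CPM.

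Car9 is a membrane carbonic anhydrase with its active site outside the cell, as in Car12 and Car14, and had a median of 150.2 FPKM over the 12 libraries. It was at 447 ± 113 CPM in late mutants against 210.1 ± 53.5 CPM, 2.13-fold higher (edgeR adjusted p = 0.0312). Early it was at 475 ± 107 against 261 ± 40.8 CPM (edgeR adjusted p = 0.301). All early mutant libraries were higher, as for 10.1% of tested genes, and on average Car9 rose 1.97-fold (edgeR adjusted p = 0.00542). The average call held in 20 of 20 alternatives. The late call was lost in 6 of 21, in the fit of late libraries alone (adjusted p = 0.0769) and without early mutant replicate 3 (0.0501), late mutant replicate 1 (0.14), late mutant replicate 3 (0.0666), late wild-type replicate 2 (0.0767) or late wild-type replicate 3 (0.117).

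Among 39 tested partners of acid, lactate and chloride transport 1 rose early, 4 rose and 1 fell late, and 5 rose and 2 fell on average, where 0.590%, 5.47% and 6.85% of all tested genes were called. Their median log2 fold change was 0.05 early and 0.35 late. The lactate transporter Slc16a1 (MCT1) rose 2.55-fold late, at 22.7 ± 8.72 against 8.93 ± 1.65 CPM (edgeR adjusted p = 0.014). That call was lost without late mutant replicate 1 (adjusted p = 0.0949), late wild-type replicate 2 (0.0582) or late wild-type replicate 3 (0.0621). Of its chaperones, Emb rose 5.07-fold early (edgeR adjusted p = 0.00415) and 4.11-fold late (adjusted p = 0.00775), while Bsg, far more abundant at a median of 11308 FPKM, did not pass (adjusted p = 0.678 early and 0.11 late). The chloride channel Ano1 was at 4.58 ± 0.319 CPM in late mutants against 0.298 ± 0.0314 CPM, 15.2-fold higher (edgeR adjusted p = 0.00405). In late wild-type libraries 3 counts were 0.0984 to 0.120 CPM, so this ratio rests on a level near the floor and its size is uncertain. The anion exchanger Slc26a7 was 3.51-fold lower late, at 10.5 ± 1.2 against 36.7 ± 2.92 CPM (edgeR adjusted p = 0.00405). Nherf2, a scaffold of sodium-proton exchangers, had a mean of 160.03 CPM and did not pass (adjusted p = 0.763 early and 0.332 late).

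Of 11 tested sodium pump genes 1 rose early, and 1 rose and 1 fell late, against 0.590% and 5.47% of all genes called. The pump drives bicarbonate entry by keeping cell sodium low. Fxyd5, a regulator of the pump and of cell adhesion, rose 11.8-fold early and 17.6-fold late, with an early log2 fold change of 3.56 that was 4.20 without early wild-type replicate 1. The macrophage marker sums given above, 305 to 677 against 43.9 to 74.1 CPM early and 485 to 594 against 49.8 to 79.9 CPM late, were higher in the same libraries, and their part in the levels of Fxyd5 and of the partner, pump and glutamine genes was not tested. Fxyd6 rose 2.86-fold on average (edgeR adjusted p = 0.00463). The beta subunit Atp1b1 fell 1.96-fold late (edgeR adjusted p = 0.0352). For Atp1b1, 11 of 21 alternatives gave no call, 8 of them by omitting a library, namely each of the 6 mutant libraries and replicates 2 and 3 of late wild type (adjusted p = 0.0532 to 0.162). The other beta subunit, Atp1b3, had 426 ± 63.5 CPM in late mutants against 795 ± 331 CPM (adjusted p = 0.089).

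Of 8 genes of glutamine use, which yields ammonia that stimulates Slc4a11, 0 passed early, 1 rose late and 2 rose on average, against the same shares of all genes. The cystine-glutamate exchanger Slc7a11 rose 5.18-fold late, at 7.25 ± 0.413 against 1.39 ± 0.202 CPM (edgeR adjusted p = 0.0251). Its late call was lost with limma-voom (adjusted p = 0.0715) and without late mutant replicate 1 (0.0724), late mutant replicate 3 (0.0596), late wild-type replicate 2 (0.0908) or late wild-type replicate 3 (0.0741). Ucp2, a mitochondrial carrier, rose 1.72-fold on average (edgeR adjusted p = 0.0149), a call lost without early mutant replicate 1 (adjusted p = 0.068). The glutamine carriers Slc38a1 and Slc38a2 had means of 254 and 94 CPM and did not pass (adjusted p = 0.161 and 0.239 late).

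**Figure D5:**
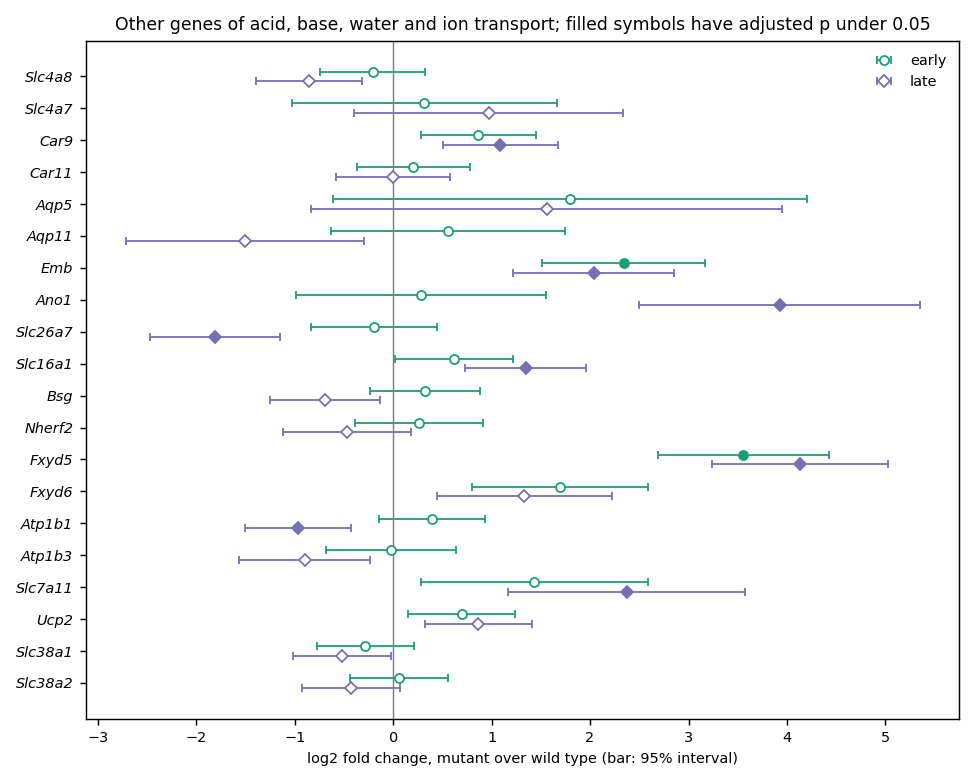
Log2 fold change of mutant over wild type for 20 other genes of acid, base, water and ion transport, early (circles) and late (diamonds), with 95% intervals and filled symbols at an adjusted p under 0.05. Car9, Emb, Ano1, Slc16a1, Fxyd5 and Slc7a11 are filled above 0 late, and Slc26a7 and Atp1b1 are filled below 0 late.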

How the data were processed

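Polyadenylated RNA of corneal endothelium was sequenced in 12 libraries. The labels' protocols give TRIzol extraction and a strand-keeping library kit. Per the submitters' processing notes, GRCm39 was the build and DESeq2, HTSeq, HISAT2 and fastp were used; for versions, annotation, the strand setting of counting and any batch adjustment, the sources used here say nothing. The authors deposited whole-number counts per gene and FPKM values for each library, per the file headers. The authors' deposited comparison tables hold q-values, p-values, a ratio of group levels and its log2 fold change; their 12 per-sample FPKM columns were not used.

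Groups, stages and replicate numbers come from the labels. Counts were tested with edgeR 4.0.16 (R 4.3.3) using TMM scaling, filterByExpr (17965 of 32761 genes kept), robust dispersions and a quasi-likelihood F test, fitted once to all 12 libraries (8 residual degrees of freedom, common biological coefficient of variation 0.464). Standard errors were derived from the F statistic. The average genotype effect is the mean of the early and late log2 effects. Calls have a Benjamini-Hochberg adjusted p under 0.05. p-values weigh a difference between groups against the spread between these libraries, and 3 counts were taken as the floor. The scripts were tested on simulated data. Replicates differed by 48.1 to 237 in chi-square per gene, so none were copies.

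Every member is named. From each other transport list the genes past the threshold in a genotype effect are named, up to 4 by smallest p, with the 2 of highest mean CPM. A gene that this rule takes is not reported here. The 3 nearest genes are named for Slc4a11 and each called member (log2 CPM with a prior count of 2, genes of at least 5 CPM). Members and lists were chosen with earlier results of these data known. Alternatives were DESeq2 1.42.0 size factors and Wald test, limma-voom 3.58.1 with sample weights, a stricter filter (5 CPM in 3 libraries) or none, compared libraries alone, protein-coding genes alone, a replicate block and leaving out each library. Library sizes without Car3 were added after seeing the data. Promoters are RefSeq's, on GRCm38.p6, and overlapping genes are from GENCODE M21; neither is the build named by the submitters.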

Additional observations from a re-analysis of the deposited data

How the results depend on the processing

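Over 1524 values under alternatives, for the members and for the other called transport genes, 1411 kept their direction and side of the threshold, 42 lost a call, 18 gained one and 53 changed sign. The number of members called early (0) was 1 by DESeq2's Wald test and 0 leaving out any 1 library. The number called late (1) was 2 with no low-count filter, 2 with the stricter filter, 3 by DESeq2's Wald test and 3 by limma-voom. It was 0 to 4 leaving out 1 library. The share of all genes called late rose from 5.47% to 9.25% with the stricter filter, 13.8% by DESeq2 and 9.62% by limma-voom. That share ran from 1.19% to 20.3% leaving out 1 library, and was lower with no filter (1507 of 32761 genes). The number of members called on average (2) was 4 by limma-voom and 1 to 4 leaving out 1 library. The share of all genes called on average, 6.85%, was 12.8% by limma-voom and 2.92% to 15.6% leaving out 1 library. In the mutant stage comparison the number of members called (0) was 1 by limma-voom, where 1.66% of all genes were called. For the change of the genotype effect and the wild-type stage comparison the number of members called was 0 in every alternative run. The cause of these shifts was not tested.

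Replicate numbers did not pair the libraries (correlations of same-numbered deviations between genotypes from -0.09 to 0.08). With a replicate block 0 members were called early, 1 late, 2 on average and 0 in the other comparisons, while genes called fell from 106 to 88 early, from 983 to 711 late and from 1230 to 1036 on average.

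Values that changed sign were all of effects that did not pass. By limma-voom the log2 fold change was 0.0539 for Car14 early, 0.22 for Slc4a3 late and 0.0765 for Car2 in the mutant stage comparison. With no filter it was 0.0125 for Slc4a3 late and -0.000265 for the change in Aqp1. With the stricter filter it was 0.0196 for Slc4a3 late, 0.0268 for the change in Car2, -0.0118 for Car2 in the wild-type and 0.0149 in the mutant stage comparison, and 0.0347 for Car3 in the mutant one. In the compared libraries alone Car2 was at -0.0064 in the wild-type stage comparison. Leaving out 1 library moved the early log2 fold change from -0.20 to 0.29 for Slc4a2, from -0.52 to 0.0860 for Car3 and from -0.61 to 0.40 for Car14. It moved the late one from -0.44 to 0.0407 for Slc4a4 and from -0.35 to 0.24 for Slc4a3. It moved the change from -0.10 to 0.90 for Slc4a11, from -0.32 to 0.0837 for Car2 and from -0.26 to 0.81 for Aqp1. The wild-type stage effect ran from -0.42 to 0.22 for Slc4a2, from -0.0928 to 0.20 for Car2, from -0.0891 to 0.99 for Car14 and from -0.9999 to 0.0686 for Aqp1. The mutant stage effect ran from -0.32 to 0.0452 for Slc4a11, from -0.29 to 0.0516 for Slc4a3, from -0.29 to 0.11 for Car2, from -0.22 to 0.19 for Car3 and from -0.39 to 0.00220 for Aqp1.

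Counts of all genes called, the background of the members' counts, moved with the setting. The early count of 106 was 361 with no filter and 237 by DESeq2, and ran from 51 to 179 leaving out 1 library. The late count of 983 was 1507 with no filter, 2478 by DESeq2, 1728 by limma-voom and 489 in late libraries alone, and ran from 229 to 3909. The average count of 1230 was 2160 by DESeq2 and 2306 by limma-voom, and ran from 566 to 3004. The count for the change (1) was 297 with no filter, 327 by DESeq2 and 91 by limma-voom, and ran from 0 to 199. In the mutant stage comparison (0) it was 53 with no filter, 13 by DESeq2 and 299 by limma-voom. In the wild-type one (0) it was 67 with no filter, 1 by DESeq2 and 1 with the replicate block. Library sizes without Car3 left every one of these counts as it was. The TMM factors were computed anew for those sizes, so this setting could hardly move a count and does not test the effect of the share of Car3. Car2 (66 to 365 counts in a library) and Car12 (55 to 344 counts) rest on fewer reads than Slc4a11 or Aqp1.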
